A study of Mus musculus with 23 samples.

Results

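The RNA levels of 32 genes for lysosomal proteases, other lysosomal enzymes and lysosomal membrane proteins were compared among 4 subsets of dendritic cells sorted from the spleens of mice. The genes were listed by name: 10 cysteine proteases (Ctsb, Ctsc, Ctsf, Ctsh, Ctsk, Ctsl, Ctso, Ctss, Ctsz and Lgmn), 2 aspartic proteases (Ctsd and Ctse), 2 other peptidases and a thiol reductase (Ctsa, Tpp1 and Ifi30), 5 glycosidases (Hexa, Gla, Gaa, Gusb and Man2b1), 5 genes of lipid breakdown and transfer (Lipa, Ppt1, Npc1, Npc2 and Psap), 4 membrane glycoproteins (Lamp1, Lamp2, Cd63 and Cd68), and Mcoln1, Grn and Tfeb. All 32 were found among the 47729 genes of the count table, each under 1 identifier, and all 32 passed the filter on low counts.

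The study sorted dendritic cells, which take up antigens and present them to T cells, to compare their subsets. Wild type mice of the strain Balb/C were either untreated or carried the treatment label TLI, which the labels do not expand. From each pool of mice the labels name DC1a (CD8hi CD172-), DC1b (CD8Int CD172+), DC2 (CD8lo CD172hi) and DC3 (CD8- CD172lo) cells. Untreated mice gave 2 pools, and TLI mice gave 4 pools, of which pools 1 and 2 belong to batch 1 with the untreated pools and pools 3 and 4 to batch 2. The number of mice per pool and their age are not in the labels. A TLI DC2 library of pool 2 was not analysed here, so that 23 libraries were used, 8 untreated and 15 TLI. Values are listed below in the order of the pools, and for TLI DC2 cells in the order of pools 1, 3 and 4.

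Lysosomes are acidic organelles in which proteins, lipids and glycans are broken down. In dendritic cells their proteases cut antigens into peptides and remove the invariant chain from MHC class II molecules, for which cathepsin S is best known. Many lysosomal genes carry in their promoters the short palindromic element bound by the transcription factor TFEB, itself one of the 32 genes.

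Promoter stretches that hold this element are shown because some of the members carry it, a sequence feature that the list did not use. RefSeq windows from 250 bases before to 50 bases after the gene start (assembly GRCm38.p6) were found for 28 of the 32 genes, in 33 windows. The motif TCACGTGA, the same on both strands, occurred in windows of 5 member genes (Ctsa, Ctsd, Gla, Ifi30 and Mcoln1) and in 0.974% of all 32851 windows. Its core CACGTG, which lies inside the longer motif and is counted again with it, occurred in 10 member windows (Ctsa, Ctsd, Ctsf, Ctsl, Gaa, Gla, Ifi30, Lamp1, Lgmn and Mcoln1) and in 7.15% of all windows. The stretches below run 5′ to 3′ along the gene's strand with the matched letters in capitals, TCACGTGA in the first 5 and CACGTG in Lamp1, whose stretch holds the core 4 times. In all but Lamp1 an annotated exon overlapped the 60 bases first taken, and the stretch was cut to 30 bases. The gene start is that of RefSeq. By the positions of GENCODE M21 the stretches of Ctsa, Ctsd and Mcoln1 lie inside the gene, so not every stretch is upstream sequence. A match of letters is a description of the sequence and not a measurement of binding.
Ctsd, chr7:142387908-142387937, minus strand: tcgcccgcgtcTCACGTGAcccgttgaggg
Mcoln1, chr8:3500462-3500491, plus strand: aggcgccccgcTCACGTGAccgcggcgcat
Ifi30, chr8:70766842-70766871, minus strand: atccaaaaactTCACGTGAccagacatgct
Gla, chrX:134601214-134601243, minus strand: aagcgattgaTCACGTGAgcatctacgtca
Ctsa, chr2:164833743-164833772, plus strand: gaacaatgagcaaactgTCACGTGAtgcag
Lamp1, chr8:13159096-13159155, plus strand: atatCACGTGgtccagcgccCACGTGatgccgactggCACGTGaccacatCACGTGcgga

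The 23 libraries held between 19256447 and 36997890 estimated counts. Levels are given as CPM, the usual scaling of counts to library size, after adjusting that size by TMM, a factor for composition that lay between 0.840 and 1.18, and a floor of 3 counts stands for 0.0862 to 0.147 CPM, depending on the library. This floor covers counting error only. In bulk libraries fewer cells of a type and less RNA per cell cannot be told apart. The subset labels were compared with marker genes. The summed level of 8 DC1 markers was 2633 to 2887 CPM in untreated DC1a, 1601 to 1684 CPM in DC1b, 1545 to 1659 CPM in DC3 and 189 to 220 CPM in DC2 cells, and that of 6 DC2 markers was 605 to 723 CPM in untreated DC2 and at most 311 CPM in the other untreated libraries. Of the DC1 markers, Irf8 was at 914 and 779 CPM in untreated DC1b, 800 and 815 CPM in DC3 and 610 and 503 CPM in DC1a cells. Cadm1 overlapped, at 186 and 262 CPM in untreated DC1b and 171 and 189 CPM in DC1a cells. The other DC1 markers were all lower in untreated DC1b than in DC1a cells, such as Xcr1 (94.7 and 61.8 as compared to 504 and 427 CPM). Of the DC2 markers, Cd4 was at 125 and 141 CPM in untreated DC1b and 116 and 27.5 CPM in DC2 cells. Irf4 overlapped, at 32.9 and 150 CPM in untreated DC2, 62.3 and 77.4 CPM in DC1b and 50.4 and 83.5 CPM in DC3 cells. Esam was at 29.4 and 0 CPM in untreated DC2 cells. Sirpa, Itgam and Clec4a4 were higher in both untreated DC2 libraries than in any other untreated library. In TLI mice the DC1 markers summed to 3257 to 4752 CPM in DC1a, 690 to 1331 CPM in DC1b, 1363 to 2245 CPM in DC3 and 130 to 282 CPM in DC2 cells, but the DC2 markers did not set DC2 cells apart, with 231, 152 and 616 CPM in DC2 and 253, 220, 74.2 and 54.1 CPM in DC1b cells. Of the sort markers, Cd8a was at 0.363 CPM in TLI DC1b pool 4, labelled CD8Int, as compared to 85.5 to 352 CPM in the other TLI DC1b libraries, and Sirpa, which encodes CD172a, was at 8.79 CPM in TLI DC2 pool 3, labelled CD172hi, as compared to 34 and 282 CPM in the other TLI DC2 and 176 to 237 CPM in the untreated DC2 libraries. The RNA level of the sort marker in these 2 libraries went against their labels, and the counts of called genes without each are given with the comparisons. Sirpa was also low in TLI DC1b pools 3 and 4, labelled CD172+, at 5.51 and 7.26 CPM, as compared to 162 and 145 CPM in pools 1 and 2. Cd8a was at 37.9 CPM in untreated DC3 pool 2, labelled CD8-, as compared to 0.352 CPM in pool 1. The counts without TLI DC1b pool 3 or untreated DC3 pool 2 are given only in part. Markers of other cells also moved between groups. The 5 natural killer cell markers summed to 222 and 105 CPM in untreated DC3 cells and to at most 6.5 CPM in the other untreated libraries. In TLI DC3 cells they summed to between 28.9 and 2704 CPM. The 5 B cell markers reached 5693 CPM in TLI DC1b pool 3. The part of these cells in the subset differences was not tested. The 6 plasmacytoid markers summed to between 3418 and 5001 CPM in untreated DC1b cells and to at most 221 CPM in the other 21 libraries, the 9 neutrophil markers to between 1445 and 23408 CPM in TLI DC1b cells, and the 5 erythroid markers to between 18529 and 137560 CPM in the 7 TLI libraries of batch 1 as compared to between 51.1 and 7905 CPM in the other 16.

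Levels of different genes were set side by side per kilobase of the principal transcript, as the mean of the 8 groups of subset and treatment. Cathepsin S stood first with 1019 CPM per kilobase, followed by Ppt1, a thioesterase that removes fatty acids from proteins, with 727 CPM per kilobase, the macrosialin gene Cd68 with 435, Ctsz with 326 and Ifi30 with 310. At the other end were Tfeb with 2.66 CPM per kilobase, Ctsf with 1.51 and Ctsk, the collagen-degrading cathepsin of bone, with 0.159 CPM per kilobase. Ctsf had 0 counts in 14 of the 23 libraries and Ctsk in 18, so their fitted fold changes carry no size, and no fold change is given for them. Some genes overlap others, whose reads may be shared since nothing says whether strand entered the counting: 26.8% of the exonic bases of Ctsl lie opposite an antisense gene that is not in the count table, 12.8% of those of Ctsb opposite Fdft1, 10.5% of those of Ctsa opposite Pltp and 3.51% of those of Ppt1 opposite Cap1. The 32 genes together took between 0.374% and 2.11% of all counts in a library.

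**Figure D1:**
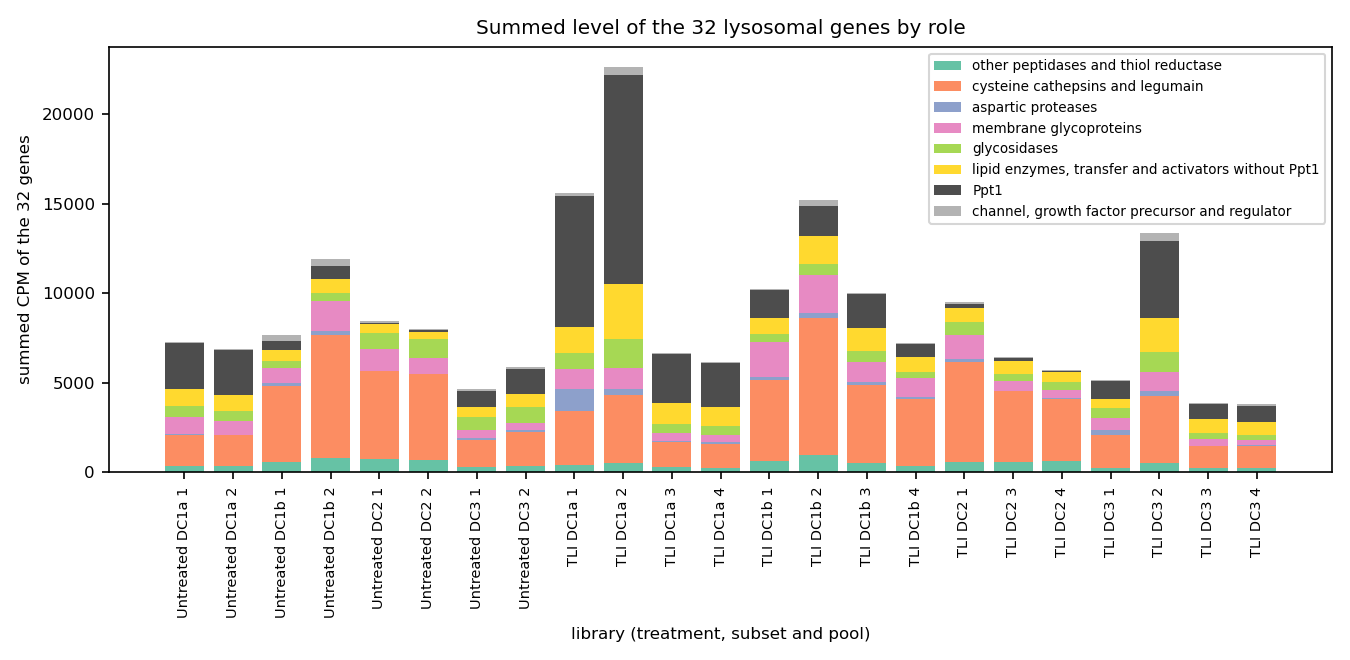
Bars show the summed CPM of the 32 genes in each of the 23 libraries, split by role, with Ppt1 drawn on its own in dark grey. The cysteine proteases (orange) sum to between 4241 and 6881 CPM in untreated DC1b and to between 1704 and 1732 CPM in untreated DC1a cells, and Ppt1 makes up 11678 of 22640 CPM in TLI DC1a pool 2.

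Subsets were compared over 19597 genes with the quasi-likelihood test of edgeR, p-values adjusted by Benjamini-Hochberg, as the mean of the differences in untreated and in TLI mice, and a gene was called at an adjusted p under 0.05. The 6 comparisons share libraries, so their counts are not independent. In DC1b as compared to DC1a cells 11 of the 32 genes were called, 9 higher and 2 lower, where 2.89% of all genes were called (1.89% higher and 1% lower). DC2 cells differed from DC1a cells in 9 genes, 6 higher and 3 lower, as compared to 7.01% of all genes (3.68% higher and 3.33% lower). A single gene, Ppt1, was called between DC2 and DC1b cells, lower in DC2, as compared to 0.75% of all genes (0.25% higher and 0.5% lower). DC3 cells differed from DC1a cells in 2 genes, 1 in each direction, as compared to 1.4% of all genes (0.714% higher and 0.689% lower). As compared to DC1b cells, DC3 cells were lower in 6 genes and higher in 0, where 1.33% of all genes were called (0.352% higher and 0.975% lower). As compared to DC2 cells, DC3 cells were lower in 6 genes and higher in 1, where 3.33% of all genes were called (1.4% higher and 1.93% lower). At an unadjusted p under 0.05 stood 15, 21, 9, 7, 15 and 18 of the 32 genes in these 6 comparisons, as compared to 16.5%, 21.9%, 12.4%, 14%, 12.6% and 16.5% of all genes. DESeq2 called 12, 17, 7, 6, 12 and 16 of the 32, as compared to 10%, 16.8%, 6.97%, 8.2%, 7.05% and 12.1% of all genes.

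The share of all genes is drawn from genes of every level, and 29 of the 32 members averaged at least 10 CPM. Among the 8057 genes of at least that level, 6.06% were called between DC1b and DC1a, 13.9% between DC2 and DC1a, 1.63% between DC2 and DC1b, 3.1% between DC3 and DC1a, 2.89% between DC3 and DC1b and 6.8% between DC3 and DC2. The median fitted log2 fold change of the 32 genes was 0.77 for DC1b against DC1a, 0.68 for DC2 against DC1a, -1.10 for DC3 against DC1b and -0.89 for DC3 against DC2, while the medians of all genes lay between -0.03 and 0.08. Without Ctsf and Ctsk the medians were 0.77, 0.68, -1.10 and -0.77. Without the batch term the counts called were 3, 4, 1, 1, 3 and 2. Without TLI DC1b pool 4 they were 11, 9, 1, 1, 5 and 7, and without TLI DC2 pool 3 they were 11, 8, 1, 1, 6 and 5. Leaving out untreated libraries moved them further. Without untreated DC1a pool 1, DC1a pool 2 or DC1b pool 2 there were 3, 4 and 4 called genes between DC1b and DC1a cells, and without untreated DC1a pool 2 there were 5 between DC2 and DC1a cells. In all, 14 of the 32 genes were called in at least 1 comparison and 18 in none. In the 8 untreated libraries fitted alone the counts called were 4, 4, 2, 0, 2 and 2, in the order above, and with the pool as a replicate block 11 instead of 7 genes were called between DC3 and DC2 cells. The losses of calls given below are mostly those of leaving out 1 library. Other settings, such as no batch term or a single treatment, ended further calls that are not all listed by gene.

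The 15 macrophage and monocyte markers, none of them one of the 32 genes, differed among the untreated subsets in their sum, most of which came from Lyz2. Their sum was 906 to 956 CPM in untreated DC1a cells, with 10 of the 15 above the floor in both libraries and C1qb, C1qc, Fcgr1 and Marco at or under it in both. It was 3178 to 5224 CPM in DC1b cells (12 of 15, with Fcgr1 and Marco at or under the floor), 4919 to 5457 CPM in DC2 cells (9 of 15, with Marco at or under it) and 1656 to 2716 CPM in DC3 cells (7 of 15, with C1qc, Mertk and Slc40a1 at or under it). In the TLI groups the sum was 560 to 1960 CPM in DC1a, 8709 to 27271 CPM in DC1b, 5823 to 14324 CPM in DC2 and 1331 to 3725 CPM in DC3 cells. Without Lyz2, which was at 741 and 749 CPM in untreated DC1a, 1634 and 2822 CPM in DC1b, 5051 and 4313 CPM in DC2 and 1176 and 2353 CPM in DC3 cells, the other 14 summed to 166 and 207 CPM in DC1a, 1543 and 2402 CPM in DC1b, 406 and 606 CPM in DC2 and 480.2 and 363 CPM in DC3 cells, so that DC2 and DC3 overlapped. Of the 14, Ly6c2 alone was at 1253.5 and 2090.5 CPM in untreated DC1b cells. It was at 18 and 29.8 CPM in DC1a, 18.4 and 19.3 CPM in DC2 and 189 and 59.7 CPM in DC3 cells. The part of the cells of the 15 markers in the subset differences of Cd68 and the cathepsins was not tested.

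**Figure D2:**
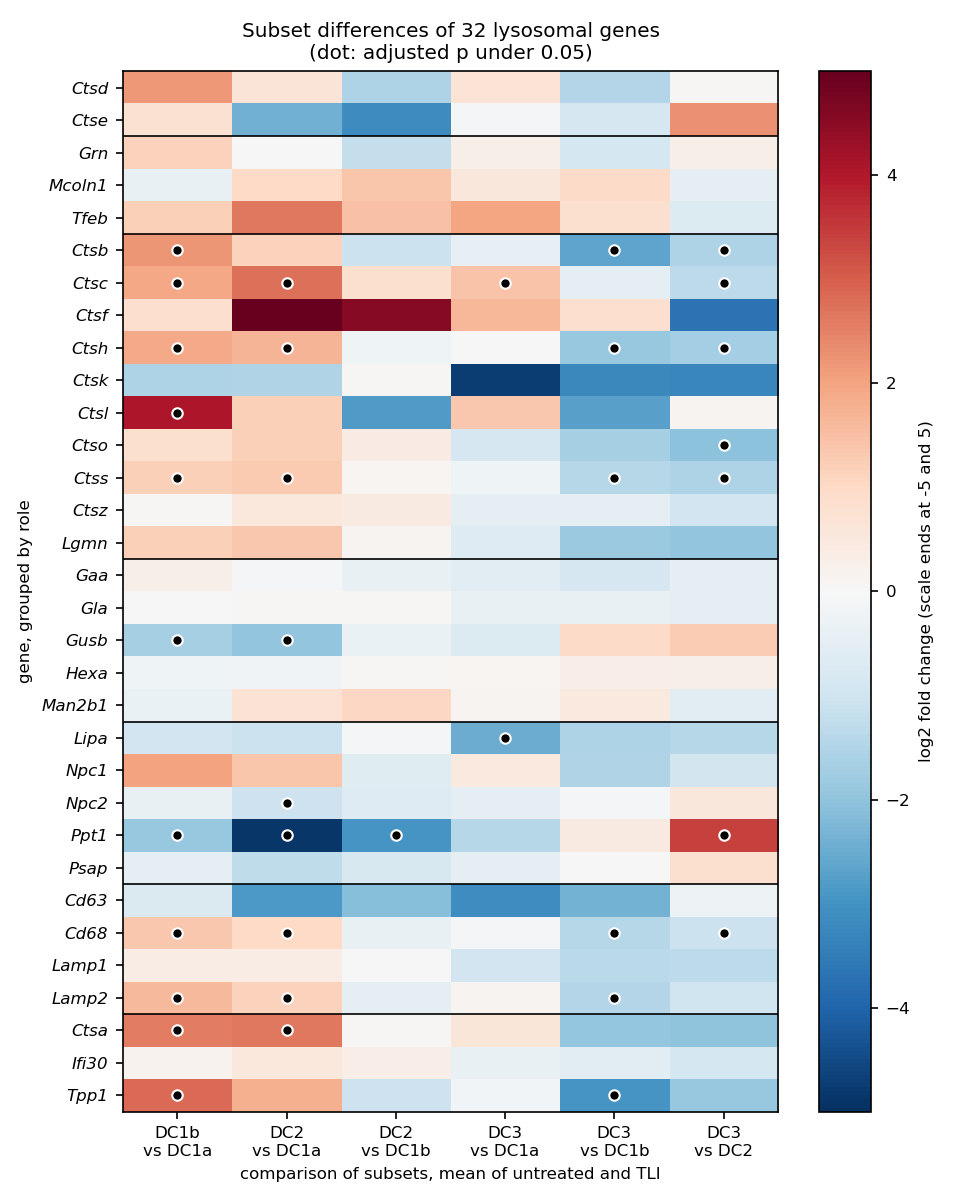
Colours show the fitted log2 fold change of each of the 32 genes (from top to bottom, grouped by role) in the 6 comparisons of subsets (from left to right), averaged over untreated and TLI mice, and dots mark the 36 pairs with an adjusted p under 0.05. Most dots lie under DC1b against DC1a (11) and DC2 against DC1a (9), and the deep colours of Ctsf and Ctsk carry no dot.

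Among the cysteine proteases, cathepsins B, C, H, L and S were significantly increased in DC1b as compared to DC1a cells, and cathepsins C, H and S in DC2 as compared to DC1a cells. Cathepsins B, H and S were significantly lower in DC3 than in DC1b cells, and cathepsins B, C, H, O and S were lower in DC3 than in DC2 cells. Cathepsin S is the protease that finishes the removal of the invariant chain. Its level in the untreated pools was 752 and 793 CPM in DC1a, 1173 and 1949 in DC1b, 2039.5 and 1669.5 in DC2 and 711 and 645 in DC3 cells. In the TLI pools it was 988, 1140.3, 758 and 727 CPM in DC1a, 2039.6, 3352, 1858 and 2233 in DC1b, 2374, 2174 and 1887 in DC2 and 768, 1059.5, 605 and 596 in DC3 cells. Every DC1b and DC2 library was above every DC1a and DC3 library, in untreated and TLI mice alike. The log2 fold change was 1.21 (SE 0.16, edgeR adjusted p = 0.000194) for DC1b and 1.31 (SE 0.16, edgeR adjusted p = 6.88e-05) for DC2 cells against DC1a cells. It was -1.43 (SE 0.16, edgeR adjusted p = 0.000111) for DC3 against DC1b and -1.53 (SE 0.16, edgeR adjusted p = 2.57e-05) for DC3 against DC2 cells. None of these 4 calls was lost when any 1 of the 23 libraries was left out, while 2 of them were lost with the untreated groups alone in the same fit, and all 4 in the 8 untreated libraries fitted alone.

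Cathepsin B, an endopeptidase that also trims its substrates from the end, stood in the untreated pools at 177 and 146 CPM in DC1a, 901 and 1632 in DC1b, 573 and 502 in DC2 and 121 and 173 in DC3 cells. The TLI pools gave 887, 1010.5, 155 and 180.1 CPM in DC1a, 1120, 1476, 1183 and 777 in DC1b, 895, 396 and 457 in DC2 and 179, 687, 192 and 148 in DC3 cells. The DC3 libraries were all below the DC1b libraries, whereas the 2 TLI DC1a libraries of batch 1 reached the DC1b range. Its log2 fold change was 2.22 (SE 0.37, edgeR adjusted p = 0.00204) for DC1b against DC1a, -2.62 (SE 0.37, edgeR adjusted p = 0.00105) for DC3 against DC1b and -1.56 (SE 0.36, edgeR adjusted p = 0.0227) for DC3 against DC2 cells. The call of DC1b against DC1a remained without any single library but was lost without the batch term and in the TLI groups alone (edgeR adjusted p up to 0.107). The call of DC3 against DC1b remained in every alternative, and that of DC3 against DC2 was lost without untreated DC2 pool 1 or 2 or untreated DC3 pool 1 or 2 (adjusted p up to 0.149, edgeR).

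Cathepsin C removes dipeptides and activates granule proteases. Untreated pools held 82.2 and 141 CPM in DC1a, 213 and 515 in DC1b, 639 and 889 in DC2 and 309 and 422 in DC3 cells and TLI pools 137, 281, 41.5 and 57.1 CPM in DC1a, 457, 613, 496 and 281 in DC1b, 939, 491 and 432 in DC2 and 243, 563, 146 and 125 in DC3 cells. All DC2 libraries were above all DC1a libraries. The log2 fold change was 2.74 (SE 0.37, edgeR adjusted p = 0.000164) for DC2 and 1.94 (SE 0.35, edgeR adjusted p = 0.00425) for DC1b against DC1a cells, 1.43 (SE 0.34, edgeR adjusted p = 0.0456) for DC3 against DC1a and -1.30 (SE 0.35, edgeR adjusted p = 0.0488) for DC3 against DC2 cells. The first remained in every alternative, and the second was lost without untreated DC1a pool 1. The second was also lost without the batch term, in batch 1 alone, and in both fits of the untreated groups alone. The third was lost without any 1 of untreated DC1a pool 1 or 2, untreated DC2 pool 1 or 2, untreated DC3 pool 1 or 2, TLI DC1a pool 1, 3 or 4, TLI DC1b pool 4, TLI DC2 pool 3 or 4 or TLI DC3 pool 2, 3 or 4, with an edgeR adjusted p up to 0.347. The fourth was lost without any 1 of untreated DC1a pool 1 or 2, untreated DC2 pool 1 or 2, untreated DC3 pool 1 or 2, TLI DC1a pool 1, 3 or 4, TLI DC1b pool 4, TLI DC2 pool 1, 3 or 4 or TLI DC3 pool 1, 3 or 4, with an edgeR adjusted p up to 0.235.

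Cathepsin H, an aminopeptidase, was at 191 and 137 CPM in DC1a, 611 and 972 in DC1b, 726 and 652 in DC2 and 95.3 and 204 in DC3 cells in the untreated pools. The TLI pools had 316, 368, 52.7 and 60.5 CPM in DC1a, 376, 769.9, 415 and 131 in DC1b, 537, 268 and 147 in DC2 and 171, 466, 42.1 and 109 in DC3 cells. The untreated DC1b and DC2 libraries were all above the DC1a and DC3 libraries, and in TLI mice the subsets overlapped. Against DC1a cells, the fitted change on the log2 scale was 1.89 (SE 0.41, edgeR adjusted p = 0.0163) for DC1b and 1.69 (SE 0.42, edgeR adjusted p = 0.0197) for DC2 cells. The other comparisons gave -1.90 (SE 0.41, edgeR adjusted p = 0.0252) for DC3 against DC1b and -1.70 (SE 0.41, edgeR adjusted p = 0.0309) for DC3 against DC2. Each of these calls was lost when a single library was left out. That of DC1b against DC1a was lost without untreated DC1a pool 1 or 2 or untreated DC1b pool 2, that of DC2 against DC1a without untreated DC1a pool 1 or 2 or untreated DC2 pool 1 or 2, that of DC3 against DC1b without untreated DC1b pool 2 or untreated DC3 pool 1 or 2, and that of DC3 against DC2 without untreated DC2 pool 1 or 2, untreated DC3 pool 1 or 2, TLI DC2 pool 3 or TLI DC3 pool 3. The edgeR adjusted p without them reached 0.168, 0.137, 0.222 and 0.202.

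Cathepsin L, which processes the invariant chain in thymic epithelium, had the largest log2 fold change among the called members in DC1b against DC1a cells, 4.05 (SE 0.89, edgeR adjusted p = 0.0178). Its level was 19.9 and 10.7 CPM in DC1a, 618 and 1122 in DC1b, 14.9 and 15.5 in DC2 and 15.1 and 54.6 in DC3 cells in the untreated pools. In the TLI pools it was 20.6, 11.8, 8.95 and 0 CPM in DC1a, 55.1, 115, 18.9 and 20.9 in DC1b, 124, 6.95 and 30.5 in DC2 and 49.8, 51.9, 4.02 and 18.8 in DC3 cells. No library but the untreated DC1b libraries was above 124 CPM, and the fitted difference was 5.83 in untreated and 2.26 in TLI mice. The 6 plasmacytoid markers were all above the floor in the untreated DC1b libraries and summed to 3418 and 5001 CPM there, as compared to between 68.6 and 159 CPM in the TLI DC1b libraries, and their part in the level of Ctsl was not tested. The call was lost without untreated DC1a pool 1 or 2 or untreated DC1b pool 2 (edgeR adjusted p up to 0.211) and in the fit that leaves out the TLI libraries of batch 1.

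Cathepsin O was at 51 and 41.9 CPM in DC1a, 225 and 218 in DC1b, 110.3 and 149 in DC2 and 17.1 and 24.6 in DC3 cells in the untreated pools and at 75.5, 90.9, 31.9 and 95.5 CPM in DC1a, 40.9, 89.3, 21.4 and 45 in DC1b, 106, 192 and 63.5 in DC2 and 112, 61, 32.7 and 20.3 in DC3 cells in the TLI pools. It was lower in DC3 than in DC2 cells, with a log2 fold change of -2.05 (SE 0.43, edgeR adjusted p = 0.0117). Without untreated DC3 pool 1 or 2 this call was lost (edgeR adjusted p up to 0.106). Cathepsin Z and legumain, an asparagine-specific protease of antigen processing, were called in no comparison. Ctsz lay between 164 and 1108 CPM over the 23 libraries, and Lgmn between 6.23 and 132 CPM. The fitted log2 fold change of DC3 against DC2 cells was -0.95 (SE 0.32) for Ctsz and -1.98 (SE 0.55) for Lgmn. With the pool as a replicate block Ctsz passed the threshold in that comparison, with -1.10 (SE 0.18, edgeR adjusted p = 0.00423).

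**Figure D3:**
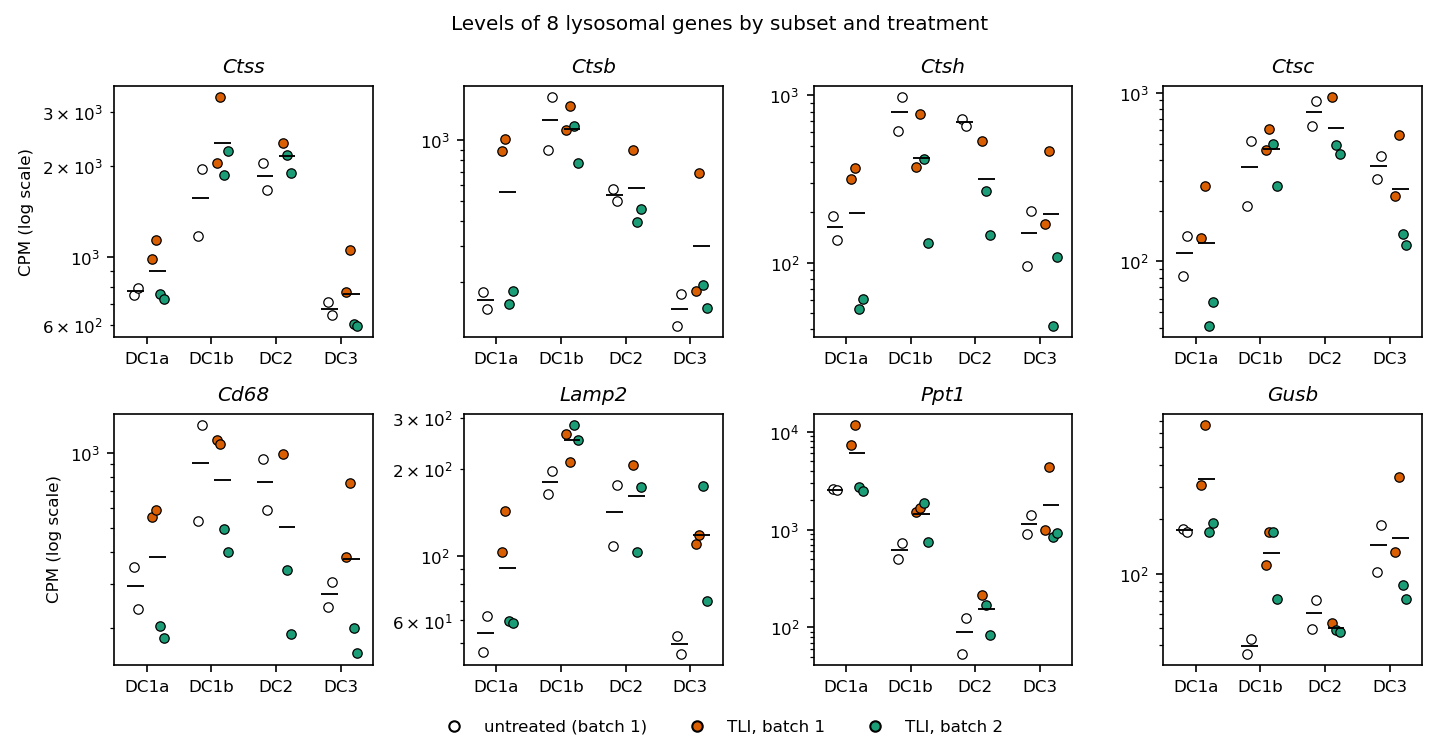
Each of the 8 panels shows 1 gene, with the CPM of every library on a log axis by subset, untreated libraries in white and TLI libraries of batch 1 in orange and of batch 2 in green. Horizontal lines mark group means. Ctss is high in all DC1b and DC2 libraries (1173 to 3352 CPM) as compared to DC1a and DC3 (596 to 1140.3 CPM), and Ppt1 is lowest in all DC2 libraries (54.2 to 213 CPM).

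Neither aspartic protease was called in a comparison of subsets. Cathepsin D, a main endopeptidase of lysosomes, was low, at 9.77 and 5.63 CPM in DC1a, 5.1 and 24.7 in DC1b, 14.6 and 10.8 in DC2 and 0 and 30.8 in DC3 cells in the untreated and 52, 35.5, 2.41 and 0.291 CPM in DC1a, 57.6, 173, 59.9 and 8.98 in DC1b, 68.5, 0 and 4.55 in DC2 and 40.4, 57.1, 4.34 and 0 in DC3 cells in the TLI pools. In the TLI pools its subsets overlapped. In the untreated pools only DC2 and DC1a cells were apart, with both DC2 libraries above both DC1a libraries. Of its exonic bases 34.4% are shared with a gene on the same strand that is not in the count table. Cathepsin E, an endosomal aspartic protease, was at 29.2 and 30.6 CPM in DC1a, 158 and 191 in DC1b, 12.6 and 0.795 in DC2 and 93.9 and 28.3 in DC3 cells in the untreated pools. In the TLI pools it was at 1137, 294, 40.4 and 84.8 CPM in DC1a, 105, 121, 72.1 and 77.6 in DC1b, 102, 5.17 and 24.3 in DC2 and 273, 212, 2.95 and 77.3 in DC3 cells. The level ran from 0.795 CPM in an untreated DC2 library to 1137 CPM in TLI DC1a pool 1, and the fitted log2 fold change of DC2 against DC1b cells was -3.13 (SE 0.86, edgeR adjusted p = 0.116).

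Of the other peptidases, Ctsa, the protective protein of a lysosomal galactosidase and neuraminidase, was significantly increased in DC1b and in DC2 as compared to DC1a cells. Its levels were 36.9 and 18.9 CPM in DC1a, 231 and 274 in DC1b, 235 and 276 in DC2 and 71 and 59 in DC3 cells in the untreated pools. They were 97.1, 192, 19.9 and 26.2 CPM in DC1a, 212, 473, 164 and 112 in DC1b, 248, 114 and 188 in DC2 and 81.5, 242, 3.5 and 35.8 in DC3 cells in the TLI pools. Untreated DC1b and DC2 libraries were all above untreated DC1a and DC3 libraries, and TLI DC1a pool 2 and TLI DC3 pool 2 reached into the DC1b range. Its log2 fold change was 2.56 (SE 0.55, edgeR adjusted p = 0.0149) for DC1b and 2.63 (SE 0.56, edgeR adjusted p = 0.00795) for DC2 against DC1a cells. The first was lost without untreated DC1a pool 1 or 2 or untreated DC1b pool 2, and the second without untreated DC1a pool 2, with an edgeR adjusted p up to 0.176 and 0.0889. Between DC3 and DC2 cells Ctsa passed the threshold with the replicate block, with -2.19 (SE 0.50, edgeR adjusted p = 0.0286).

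Tpp1, a peptidase that removes tripeptides, was at 4.85 and 4.6 CPM in DC1a, 102 and 87.3 in DC1b, 25.9 and 26.3 in DC2 and 1.49 and 15.8 in DC3 cells in the untreated pools. The TLI pools gave 39, 30.5, 10.5 and 16.8 CPM in DC1a, 42.2, 32.1, 93.1 and 33.7 in DC1b, 60, 22.8 and 50.2 in DC2 and 13, 20.3, 0.746 and 10.2 in DC3 cells. All DC3 libraries were below all DC1b libraries. The log2 fold change was 2.82 (SE 0.69, edgeR adjusted p = 0.0328) for DC1b against DC1a and -2.96 (SE 0.69, edgeR adjusted p = 0.044) for DC3 against DC1b cells. With the pool as a replicate block neither was called (edgeR adjusted p = 0.0606 and 0.0811). Leaving out 1 library also ended them, the first without untreated DC1a pool 1 or 2, untreated DC1b pool 1 or 2 or TLI DC1a pool 3 or 4 (edgeR adjusted p up to 0.257). The second was lost without any 1 of untreated DC1a pool 1 or 2, untreated DC1b pool 1 or 2, untreated DC2 pool 1 or 2, untreated DC3 pool 1, TLI DC1a pool 1, 2, 3 or 4, TLI DC1b pool 3 or 4, TLI DC2 pool 1 or 3 or TLI DC3 pool 1 or 4 (edgeR adjusted p up to 0.242).

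Ifi30 encodes the thiol reductase GILT, which opens disulfide bonds of antigens before they are cut. Its levels were 322 and 321 CPM in DC1a, 254 and 408 in DC1b, 470.4 and 380.5 in DC2 and 209 and 256 in DC3 cells in the untreated pools. The TLI pools gave 266, 268, 261 and 191 CPM in DC1a, 385, 425, 254 and 178 in DC1b, 278, 441 and 367 in DC2 and 139, 266, 217 and 193 in DC3 cells. Every DC3 library was below every DC2 library, and the fitted log2 fold change was -0.88 (SE 0.24, edgeR adjusted p = 0.0543), which passed the threshold with the replicate block (-0.93, SE 0.23, edgeR adjusted p = 0.0417).

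Of the membrane glycoproteins, Cd68 and Lamp2 were significantly increased in DC1b and DC2 as compared to DC1a cells and lower in DC3 than in DC1b cells, while Lamp1 and Cd63 were not called. Cd68, the gene of macrosialin, was at 348 and 238 CPM in DC1a, 535 and 1288 in DC1b, 939.9 and 592 in DC2 and 243 and 304 in DC3 cells in the untreated pools. It was at 554, 589.8, 204 and 183 CPM in DC1a, 1119, 1088, 495 and 400 in DC1b, 984, 339 and 189 in DC2 and 384, 758, 199 and 158 in DC3 cells in the TLI pools. The untreated DC1b and DC2 libraries were all above the DC1a and DC3 libraries, and in TLI mice the subsets overlapped. Fitted log2 fold changes were 1.36 (SE 0.25, edgeR adjusted p = 0.00473) for DC1b and 0.98 (SE 0.25, edgeR adjusted p = 0.0247) for DC2 against DC1a, -1.44 (SE 0.25, edgeR adjusted p = 0.00525) for DC3 against DC1b and -1.06 (SE 0.25, edgeR adjusted p = 0.0264) for DC3 against DC2 cells. These were lost without untreated DC1a pool 2 or untreated DC1b pool 2 (DC1b against DC1a), untreated DC1a pool 1 or 2, untreated DC2 pool 1 or TLI DC2 pool 3 (DC2 against DC1a), untreated DC1b pool 2 or untreated DC3 pool 1 (DC3 against DC1b) and untreated DC2 pool 1, untreated DC3 pool 1 or 2, TLI DC2 pool 1 or 3 or TLI DC3 pool 4 (DC3 against DC2), with an edgeR adjusted p up to 0.0746, 0.174, 0.071 and 0.159.

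Lamp2, a receptor of chaperone-mediated autophagy and a main protein of the lysosomal membrane, was at 46.5 and 61.9 CPM in DC1a, 164 and 197 in DC1b, 109 and 176 in DC2 and 53 and 46.1 in DC3 cells in the untreated pools and at 103, 143, 59.5 and 59 CPM in DC1a, 264, 211, 283 and 251 in DC1b, 206, 103 and 174 in DC2 and 109.7, 118, 174 and 69.8 in DC3 cells in the TLI pools. All DC1b libraries were above all DC1a libraries. Fitted log2 fold changes were 1.63 (SE 0.28, edgeR adjusted p = 0.00289) for DC1b and 1.15 (SE 0.28, edgeR adjusted p = 0.0197) for DC2 against DC1a cells, and -1.48 (SE 0.28, edgeR adjusted p = 0.0093) for DC3 against DC1b cells. The calls were lost without untreated DC1a pool 1, without untreated DC1a pool 1 or 2 or untreated DC2 pool 2, and without untreated DC1b pool 2 or untreated DC3 pool 1 or 2, with an edgeR adjusted p up to 0.0544, 0.155 and 0.108.

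Lamp1, the other abundant membrane protein, was at 80.5 and 69.9 CPM in DC1a, 51.6 and 89.2 in DC1b, 106 and 94.4 in DC2 and 62.7 and 14.2 in DC3 cells in the untreated pools. In the TLI pools it stood at 188, 261, 84.6 and 33.9 CPM in DC1a, 133, 378, 209 and 129.7 in DC1b, 136, 138 and 82.2 in DC2 and 64.4, 187, 18.6 and 38.1 in DC3 cells. Its subsets overlapped in the TLI pools, and its fitted log2 fold change of DC1b against DC1a was 0.39 (SE 0.46), as compared to 1.63 for Lamp2. Cd63, a tetraspanin of late endosomes, was at 464 and 385 CPM in DC1a, 60.5 and 128 in DC1b, 92 and 44.3 in DC2 and 129 and 41.6 in DC3 cells in the untreated pools. In the TLI pools it was at 274, 197, 151 and 129 CPM in DC1a, 425, 449, 132 and 300.3 in DC1b, 44.8, 24.1 and 0.377 in DC2 and 87.3, 19.1, 0.421 and 1.06 in DC3 cells. Every DC2 and DC3 library was below every DC1a library, but the libraries of a group were far apart, and the fitted log2 fold change of -2.85 (SE 0.97, edgeR adjusted p = 0.0904) for DC2 and -3.11 (SE 0.99, edgeR adjusted p = 0.154) for DC3 cells did not pass the threshold.

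Among the glycosidases only Gusb was called. It encodes beta-glucuronidase, which breaks down glycosaminoglycans. The untreated pools held 177 and 169.6 CPM in DC1a, 36.1 and 43.3 in DC1b, 49.1 and 71.7 in DC2 and 101 and 186 in DC3 cells and the TLI pools 308, 663, 170.3 and 190.5 CPM in DC1a, 111, 169, 169.6 and 72.3 in DC1b, 53.4, 48.5 and 47.4 in DC2 and 131, 342, 86.4 and 72.4 in DC3 cells. All DC2 libraries were below all DC1a and all DC3 libraries. Its log2 fold change was -1.64 (SE 0.35, edgeR adjusted p = 0.0149) for DC1b and -1.96 (SE 0.37, edgeR adjusted p = 0.00328) for DC2 against DC1a cells, opposite in sign to the cathepsins called in the same comparisons. The first was lost without untreated DC1a pool 1 or 2 or untreated DC1b pool 1 or 2 (edgeR adjusted p up to 0.107), and the second remained without any single library. That second call was lost in the untreated groups alone, both in the same fit and when fitted by themselves. DC3 against DC2 cells passed the threshold with the replicate block, with 1.14 (SE 0.27, edgeR adjusted p = 0.0357). The other glycosidases were called in no comparison. Man2b1, a mannosidase, lay between 127 and 813 CPM, Hexa, a subunit of hexosaminidase, between 30.4 and 288 CPM, Gaa, which breaks down glycogen, between 0.099 and 45.8 CPM, and Gla, an alpha-galactosidase, between 0 and 44.6 CPM.

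Of the lipid genes, Ppt1 was significantly lower in DC2 cells than in each other subset and lower in DC1b than in DC1a cells. The untreated pools had 2596 and 2536 CPM in DC1a, 506 and 725 in DC1b, 54.2 and 124 in DC2 and 893 and 1410.3 in DC3 cells. The TLI pools had 7314, 11678, 2728 and 2485 CPM in DC1a, 1525, 1677, 1869 and 751 in DC1b, 213, 171 and 83.7 in DC2 and 997, 4326, 831 and 915 in DC3 cells. The DC2 libraries were all below those of every other subset, and every DC1b library was below every DC1a library. The log2 fold change was -4.86 (SE 0.48, edgeR adjusted p = 6.68e-06) for DC2 against DC1a, the largest in size among the called members, -2.95 (SE 0.43, edgeR adjusted p = 0.00188) for DC2 against DC1b and 3.42 (SE 0.44, edgeR adjusted p = 0.000221) for DC3 against DC2 cells. The differences of DC2 from DC1a and from DC3 cells remained in every alternative, and in untreated and TLI mice alone they were -4.85 and -4.87 against DC1a. The call of DC2 against DC1b cells was lost in the untreated groups alone, both in the same fit and when fitted by themselves. DC1b against DC1a cells gave -1.91 (SE 0.40, edgeR adjusted p = 0.0124), a call that was lost without untreated DC1a pool 1 or 2 or untreated DC1b pool 1 or 2 (edgeR adjusted p up to 0.104). DC3 against DC1a cells gave -1.44 (SE 0.39, edgeR adjusted p = 0.0853) and, with the replicate block, -1.53 (SE 0.31, edgeR adjusted p = 0.0261).

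Lipa encodes lysosomal acid lipase, which hydrolyses cholesteryl esters and triglycerides. It was at 133 and 115 CPM in DC1a, 47.9 and 38.7 in DC1b, 80.7 and 50.6 in DC2 and 13.7 and 16.1 in DC3 cells in the untreated pools and at 238, 403, 104 and 131 CPM in DC1a, 139, 154, 138 and 142 in DC1b, 115, 95.1 and 30 in DC2 and 20.3, 141, 26.6 and 39 in DC3 cells in the TLI pools. DC3 cells were lower than DC1a cells, with a log2 fold change of -2.49 (SE 0.44, edgeR adjusted p = 0.00542), although TLI DC3 pool 2 with 141 CPM reached the DC1a range. The call was lost without untreated DC3 pool 1 or 2 (edgeR adjusted p up to 0.0808). Npc2, which hands cholesterol on to the membrane protein NPC1, was at 371 and 362 CPM in DC1a, 199 and 316 in DC1b, 149 and 130.2 in DC2 and 266 and 305 in DC3 cells in the untreated pools and at 440.2, 477, 437 and 275 CPM in DC1a, 433, 648, 205 and 204 in DC1b, 337, 190.2 and 192 in DC2 and 235, 396, 243 and 236 in DC3 cells in the TLI pools. It was lower in DC2 than in DC1a cells, with a log2 fold change of -1.04 (SE 0.22, edgeR adjusted p = 0.00833), with the untreated subsets apart and the TLI subsets overlapping, and the call was lost without untreated DC2 pool 2 (edgeR adjusted p = 0.0624). Npc1 was not called and lay between 0.942 and 78.1 CPM. Psap, the precursor of the saposins that help break down sphingolipids, lay between 171 and 2213 CPM. For DC2 against DC1a cells its fitted log2 fold change was -1.28 (SE 0.43, edgeR adjusted p = 0.0886), and -1.11 (SE 0.26, edgeR adjusted p = 0.0211) with the replicate block.

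The remaining genes were called in no comparison of subsets. Grn, the precursor of the granulins, was at 47.3 and 56.3 CPM in DC1a, 279 and 380.5 in DC1b, 111 and 41.1 in DC2 and 76.9 and 95.1 in DC3 cells in the untreated pools and at 118, 387, 44.3 and 47.2 CPM in DC1a, 90.3, 325, 38.83 and 29.2 in DC1b, 100, 33.3 and 43.7 in DC2 and 59.8, 378, 14.4 and 70.5 in DC3 cells in the TLI pools. Its untreated DC1b libraries were above all other untreated libraries, but TLI DC1a pool 2, TLI DC1b pool 2 and TLI DC3 pool 2 reached the same range. Tfeb was at 1.41 and 2.09 CPM in DC1a, 7.74 and 2.95 in DC1b, 14.6 and 3.51 in DC2 and 12.8 and 6.28 in DC3 cells in the untreated pools and at 0.931, 1.18, 1.77 and 2.56 CPM in DC1a, 0.723, 0.151, 9.53 and 5.74 in DC1b, 11.4, 17.6 and 9.55 in DC2 and 0.785, 5.47, 9.27 and 2.76 in DC3 cells in the TLI pools. Every DC2 library was above every DC1a library, with a fitted log2 fold change of 2.65 (SE 0.81, edgeR adjusted p = 0.06). Mcoln1, a calcium channel of the lysosomal membrane, lay between 0.479 and 46.8 CPM. Of the 14 called members, among which Ctsb and Ctsh had no window, Ctsa and Ctsl hold the core of the promoter element in the windows described above, as do Ctsf, Ctsd, Gaa, Gla, Ifi30, Lamp1, Lgmn and Mcoln1, which were not called.

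All 36 called pairs of gene and comparison had the same sign in the untreated and in the TLI groups, whose libraries enter the same fit. Since the pairs were called on the mean of both differences, that choice favours equal signs, and the count is a description. The values differed most for Ctsl, and for Tpp1 in DC1b against DC1a cells with 4.32 in untreated and 1.32 in TLI mice. They were close for Ppt1 and for Ctsc in DC2 against DC1a cells, with 2.77 and 2.70. In the same fit the untreated groups alone gave 1, 3, 0, 0, 2 and 2 calls in the 6 comparisons, and the TLI groups alone 3, 4, 1, 0, 2 and 2.

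**Figure D4:**
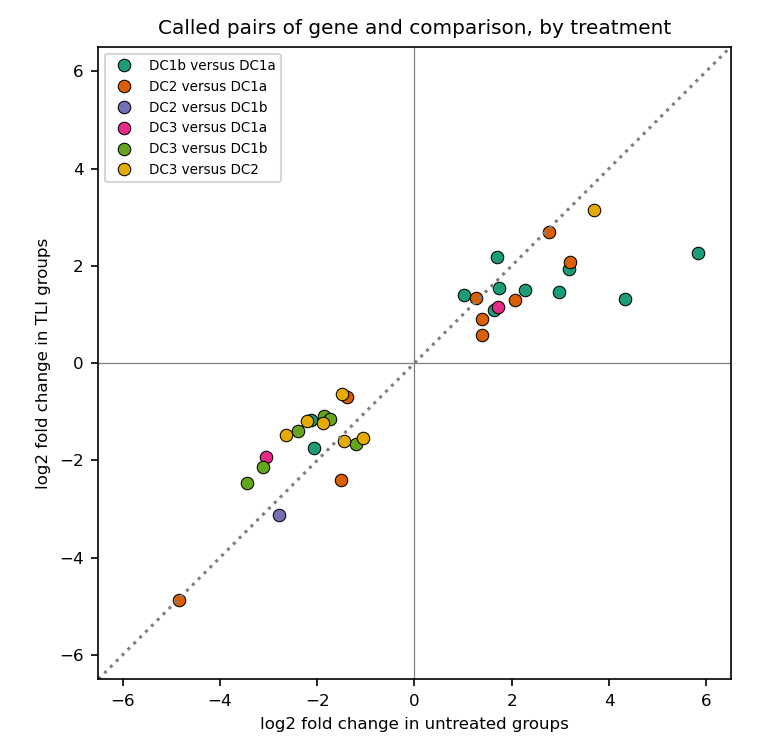
Each point is 1 of the 36 called pairs of gene and comparison, with its fitted log2 fold change in the untreated groups (x axis) against that in the TLI groups (y axis), coloured by comparison. The pairs were chosen on the mean of both axes, which favours equal signs. The point farthest below the dotted line of equal values is Ctsl at 5.83 and 2.26.

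TLI mice were then compared with untreated mice within each subset. The fitted values hold at the level of batch 1, whose 7 TLI libraries had erythroid markers summing to 18529 to 137560 CPM, as compared to 51.1 to 2138 CPM in the untreated libraries. In TLI pools of batch 2 the level of 31 of the 32 genes was fitted lower than in batch 1, with the share of all genes not given. The part of these differences in the comparison of TLI and untreated mice was not tested. None of the 32 genes was called in any subset by edgeR's test, where 0.0102% of all genes were called in DC1a, 0.413% in DC1b, 0.0612% in DC2 and 0.0255% in DC3 cells. At an unadjusted p under 0.05 stood 12, 10, 4 and 6 of the 32 genes, as compared to 9.76%, 12.4%, 9.01% and 10.4% of all genes. DESeq2 called 4, 9, 2 and 2 of the 32, as compared to 3.85%, 6.47%, 4.48% and 3.67% of all genes, so that the counts in DC2 and DC3 cells lay near the background. Fitted values were positive for 26, 21, 20 and 28 of the 32 genes, with medians of 1.10, 0.65, 0.50 and 0.97 on the log2 scale as compared to 0.15, 0.09, 0.02 and -0.05 over all genes. The 4 comparisons use different untreated and TLI libraries of the same pools. Since all untreated libraries are of batch 1, the batch term comes from the TLI pools alone.

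The lowest adjusted p among the members belonged to Gusb in DC1b cells, which was at 36.1 and 43.3 CPM in untreated and 111, 169, 169.6 and 72.3 CPM in TLI mice (log2 fold change 2.22, SE 0.56, edgeR adjusted p = 0.103). The groups did not overlap. Lipa in DC1b cells was at 47.9 and 38.7 CPM in untreated and 139, 154, 138 and 142 CPM in TLI mice (2.25, SE 0.67, edgeR adjusted p = 0.176), again without overlap. The level of Ppt1 in the same cells was 506 and 725 CPM in untreated and 1525, 1677, 1869 and 751 CPM in TLI mice (1.88, SE 0.62, edgeR adjusted p = 0.225). The fitted values of Ctsl and Ctso in DC1b cells were negative, with -3.32 (SE 1.09, edgeR adjusted p = 0.226) for Ctsl and -1.84 (SE 0.57, edgeR adjusted p = 0.19) for Ctso. In DC1a cells Ctsb was at 177 and 146 CPM in untreated and 887, 1010.5, 155 and 180.1 CPM in TLI mice, with the 2 pools of batch 1 high and the 2 of batch 2 in the untreated range (2.09, SE 0.54, edgeR adjusted p = 0.28). The 9 neutrophil markers summed to between 1.03 and 17.1 CPM in untreated DC1b and between 1445 and 23408 CPM in TLI DC1b cells, with 6 of the 9 above the floor in all 4 TLI libraries, and their part in these values was not tested. DESeq2 passed Gusb, Lipa, Ppt1, Ctsl, Ctso, Ctss, Lamp1, Hexa and Ctsf in DC1b, Ctsb, Ctse, Ctsf and Grn in DC1a, Ctse and Npc2 in DC2, and Lamp2 and Lipa in DC3 cells.

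Whether the difference between TLI and untreated mice itself differed among the 4 subsets was tested as an interaction. None of the 32 genes was called, as compared to 0.0357% of all genes. At an unadjusted p under 0.05 stood 4 genes (Ctsf, Ctsl, Ctso and Grn) of the 32, as compared to 7.82% of all genes, and the lowest edgeR adjusted p was 0.312 for Ctso. DESeq2 called Ctso and Ctsl (adjusted p = 0.00561 and 0.043), as compared to 2% of all genes. Ctso in untreated and TLI DC1b cells was at 225 and 218 and at 40.9, 89.3, 21.4 and 45 CPM, and in DC3 cells at 17.1 and 24.6 and at 112, 61, 32.7 and 20.3 CPM.

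Within the TLI mice the pools of the 2 batches stood apart, a comparison made after the values had been seen. It sets 2 pools against 2, and the 15 libraries, of which 3 or 4 share a pool, enter the test as if independent. Deviations of libraries of the same TLI pool from their group means had a median correlation of 0.186 over 21 pairs. Batch was not removed from these deviations, and libraries of different pools of the same batch correlated at 0.0829 to 0.304. The value therefore cannot tell a shared pool from a shared batch. In batch 2 as compared to batch 1, 19 of the 32 genes were lower past the threshold and 0 were higher, where 17.4% of all genes were called and 8.07% were called lower. The fitted value was negative for 31 of the 32 genes, and Tfeb was the exception with 1.54 (SE 0.68, edgeR unadjusted p = 0.038, adjusted p = 0.131). Ctsf and Ctsk, whose fitted values carry no size, are among the 31, and Ctsf is among the 19. The share of all genes with a negative value is not given here. DESeq2 was not run on this comparison. Cd68 fell by 1.59 on the log2 scale (SE 0.21, edgeR adjusted p = 7.29e-05), Grn by 2.30 (SE 0.45, edgeR adjusted p = 0.00192), Ctsh by 1.82 (SE 0.35, edgeR adjusted p = 0.00163) and Ppt1 by 1.17 (SE 0.34, edgeR adjusted p = 0.0232), while Ifi30 and Lamp2 had -0.22 (SE 0.20, edgeR adjusted p = 0.49) and -0.32 (SE 0.23, edgeR adjusted p = 0.376). The 5 erythroid markers moved with the batches, with sums from 18529 to 137560 CPM in the TLI libraries of batch 1 and from 171 to 7905 CPM in those of batch 2, and their part in these differences was not tested. All pools of batch 2 are TLI pools 3 and 4, so that batch and pool cannot be told apart. Without the 7 TLI libraries of batch 1 the comparisons of subsets called 9, 12, 2, 3, 6 and 10 of the 32 genes, as compared to 11, 9, 1, 2, 6 and 7 with them.

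**Figure D5:**
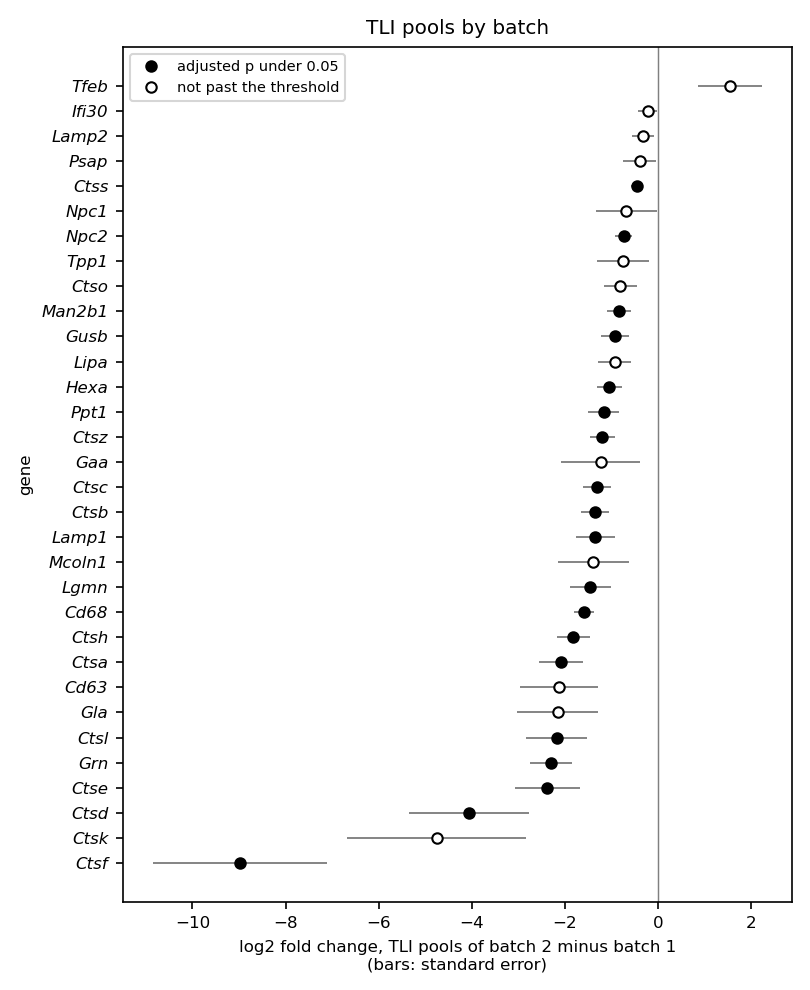
Points show for each of the 32 genes the fitted log2 fold change of TLI pools of batch 2 minus batch 1, with bars of 1 standard error, and as filled points the 19 genes with an adjusted p under 0.05. Tfeb (1.54) is the only gene right of 0, and the far points of Ctsf, Ctsk and Ctsd belong to genes with 0 counts in 14, 18 and 3 libraries.

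Other lysosomal genes, from lists of V-ATPase subunits, cathepsin inhibitors, further hydrolases, further membrane proteins, sorting factors and regulators, were counted in the same fits, and 102 of 107 passed the filter. Between DC1b and DC1a cells 4 of the 102 were called, all lower in DC1b, where 2.89% of all genes were called, and between DC2 and DC1a cells 9, of which 2 were higher and 7 lower, where 7.01% of all genes were called. The counts were 3, 6, 3 and 6 for DC2 against DC1b, DC3 against DC1a, DC3 against DC1b and DC3 against DC2 cells, with 0.75%, 1.4%, 1.33% and 3.33% of all genes called. The medians of their fitted log2 fold changes lay between -0.32 and 0.10. Of the 17 V-ATPase subunits tested, which acidify the lysosome, 1 was called in DC2 against DC1a cells, Atp6v1g1, which was lower in DC2 (-0.69, SE 0.19, edgeR adjusted p = 0.038). A further subunit was called lower in DC3 cells in each of 3 comparisons, Atp6v1d against DC1a (-0.81, SE 0.18, edgeR adjusted p = 0.0293), Atp6v0c against DC1b (-1.14, SE 0.27, edgeR adjusted p = 0.0453) and Atp6v1e1 against DC2 cells (-1.43, SE 0.35, edgeR adjusted p = 0.0333). Cst3, which encodes the cathepsin inhibitor cystatin C, was at 52981 to 55629 CPM in untreated DC1a, 8622 to 10842 CPM in DC1b, 3186 to 3986 CPM in DC2 and 19921 to 29060 CPM in DC3 cells. The log2 fold change of Cst3 was -1.76 (SE 0.15, edgeR adjusted p = 2.59e-06) for DC1b and -3.65 (SE 0.17, edgeR adjusted p = 1.38e-09) for DC2 against DC1a cells, opposite in sign to that of Ctss. In TLI as compared to untreated mice Cst3 was called in DC1b cells, with 1.35 (SE 0.23, edgeR adjusted p = 0.0123). Naaa, an amidase that hydrolyses lipid amides, was lower in DC2 than in DC1a cells (log2 fold change -5.83, SE 0.42, edgeR adjusted p = 2.05e-07) and higher in TLI than in untreated DC2 cells (3.44, SE 0.57, edgeR adjusted p = 0.0309). Stfa2, Arsb, Laptm4b, Ids, Rnaset2a, Rnaset2b, Flcn and Slc11a1 were also called in at least 1 comparison. Arsb was higher in TLI than in untreated DC1b cells (log2 fold change 2.16, SE 0.35, edgeR adjusted p = 0.0115).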

How the data were processed

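Dendritic cell subsets were sorted from mouse spleen, and cDNA was amplified from low input before library preparation and sequencing. The sources differ on the step between: per the labels cells went straight into the buffer of the reaction, while the study's methods, which name DC1a, DC1b and DC2 but not DC3 cells, describe lysis and RNA extraction with a column kit. The authors trimmed and aligned the reads (Trimmomatic, HISAT2) to the mouse assembly GRCm38 and deposited estimated counts per gene made with StringTie, which are whole numbers. Tool versions are not printed here, and strand use in counting is not given in the sources used here.

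The estimated counts of 47729 genes in 23 libraries were analysed with edgeR 4.0.16 (R 4.3.3). Genes were filtered with filterByExpr, which kept 19597, and libraries were scaled by TMM. A quasi-likelihood model held the 8 groups of subset and treatment and a batch term, which the TLI pools alone determine. Each subset comparison is the mean of the difference in untreated and TLI mice. P-values were adjusted by Benjamini-Hochberg over all genes tested, and 0.05 was the threshold. CPM were computed from the TMM-scaled library totals. Library totals were 19256447 to 28688091 in untreated and 21107794 to 36997890 in TLI mice, and amplified reads are not independent molecules. Replicates are pools of mice, and the subsets of a pool were sorted from the same mice. The model nevertheless took the 23 libraries as independent. Its p-values thus rest on the spread of libraries within groups, and only the replicate block took the shared pool into account.

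The model was tested on simulated data. Alternatives were DESeq2 1.42.0, RLE scaling, no filter, no batch term, batch 1 or the untreated libraries alone, single treatments, each library left out, and the pool as a replicate block. Labels give pool numbers, which mark a shared pool of mice. Deviations of libraries of the same pool correlated with a median of 0.186 over 21 TLI pairs and 0.0075 over 12 untreated pairs. With 2 libraries per untreated group the deviations are mirror images. The 12 untreated values therefore repeat, and those across pools are the same with the opposite sign (median -0.0075). Deviations of TLI libraries still hold the batch difference, and TLI pairs of different pools in the same batch correlated at 0.0829 to 0.304. Named genes are the 32 members and, of the other lysosomal genes, those called, with values for some of them. Gene positions come from GENCODE M21, in which 47224 identifiers matched. The members and all lists were chosen with earlier results of these data known.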

Additional observations from a re-analysis of the deposited data

Results flagged for a closer look

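In groups of 4 libraries a level was singled out where 1 library lay far from the other 3, by Dixon's test of the gap to the nearest against the whole range. This held for 13 of 96 combinations of gene and TLI group, 12 of them high, where chance gives about 1 in 20 for values with a normal spread, which CPM need not have. TLI DC3 pool 2 accounted for 6 of the 13. In that library Ppt1 was at 4326 CPM (others 831 to 997), Ctsb at 686.5 CPM (others 148 to 192), Npc2 at 395.9 CPM (others 235 to 243), Grn at 378.4 CPM (others 14.4 to 70.5), Lipa at 140.8 CPM (others 20.3 to 39) and Lgmn at 64.44 CPM (others 6.23 to 14.7).

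The remaining 7 were spread over 6 libraries. Psap was at 2213 CPM in TLI DC1a pool 2 (others 603 to 774), Ctsz at 1108 CPM in TLI DC1b pool 2 (others 258 to 347) and Tpp1 at 93.08 CPM in TLI DC1b pool 3 (others 32.1 to 42.2). Ifi30 was low in TLI DC1a pool 4, at 190.6 CPM (others 261 to 268). Values of 2 rarely detected genes were also singled out, for Ctsf at 4.417 CPM in TLI DC3 pool 1 (others 0), Ctsk at 4.107 CPM in TLI DC1b pool 2 (others 0 to 0.0964) and Ctsk at 0.1214 CPM in TLI DC1a pool 1 (others 0). For Ctsf and for Ctsk in TLI DC1a the other 3 libraries held 0 counts, so that any count would have been singled out, and the Ctsk value rests on 3 counts.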

How the results depend on the processing

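Counts of the 32 genes called are given in the order DC1b against DC1a, DC2 against DC1a, DC2 against DC1b, DC3 against DC1a, DC3 against DC1b and DC3 against DC2, where the reported counts were 11, 9, 1, 2, 6 and 7. Without a batch term they were 3, 4, 1, 1, 3 and 2, in the libraries of batch 1 alone 7, 5, 2, 1, 5 and 2, for the untreated groups alone in the same fit 1, 3, 0, 0, 2 and 2, for the TLI groups alone 3, 4, 1, 0, 2 and 2, and in the 8 untreated libraries alone 4, 4, 2, 0, 2 and 2. DESeq2 called 12, 17, 7, 6, 12 and 16, and for TLI against untreated mice 4, 9, 2 and 2 in DC1a, DC1b, DC2 and DC3 cells and 2 in the interaction, where edgeR called 0. Without the filter on low counts DC2 against DC1b gave 3, DC3 against DC1a 4, and TLI against untreated 1 in DC1a and 1 in DC1b cells. RLE scaling kept every count within 1.5 times. Without the TLI libraries of batch 1, an alternative chosen after seeing the data, DC2 against DC1b gave 2 and the others 9, 12, 3, 6 and 10.

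With the pool as a replicate block 10, 10, 1, 3, 5 and 11 genes were called, and the block changed no other call than those of Tpp1, Psap, Ppt1, Ctsa, Ctsz, Ifi30 and Gusb given above. No paired analysis was possible for TLI against untreated mice because each pool belongs to 1 treatment. Leaving out each library in turn gave 3 to 11, 5 to 12, 1 to 2, 0 to 3, 2 to 8 and 2 to 10 called genes, and 0 throughout for TLI and the interaction. DC3 against DC1a fell to 0 without untreated DC3 pool 1 or 2 and to 1 without untreated DC1a pool 1 or 2, untreated DC2 pool 1 or 2, TLI DC1a pool 1, 3 or 4, TLI DC1b pool 4, TLI DC2 pool 3 or 4 or TLI DC3 pool 3 or 4. DC3 against DC1b fell to 2 without untreated DC1b pool 2 or DC3 pool 1, and DC3 against DC2 to 4 without untreated DC2 pool 1 or 2 and to 2 without untreated DC3 pool 1 or 2. DC2 against DC1b rose to 2 without TLI DC1a pool 4 or TLI DC1b pool 3. Where a group was left with 1 library, that library was assumed to vary like the other groups. The causes were not tested.

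Of 1188 values of the 36 called pairs under the alternatives, 945 kept their direction and their call, 243 kept their direction and lost the call, and 0 reversed. The all-gene counts of calls in the same order were 567, 1373, 147, 275, 260 and 653, and with DESeq2 1962, 3302, 1365, 1606, 1382 and 2364. With 2 untreated pools and a biological coefficient of variation of 1.08, values of low genes such as Ctsf, Ctsk, Ctsd, Gla and Mcoln1 are the least certain.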
